A study of Mus musculus with 4 samples.

Results

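Type 2 immunity in the fat was followed through 9 genes in the RNA-seq data of CD45+ cells. They are the cytokine genes Il4, Il5, Il13 and Areg, the alarmin gene Il33, the receptor genes Il1rl1 and Il17rb, and the transcription factor genes Gata3 and Rora. The members were chosen by name, and all 9, protein-coding genes of 4 to 18 exon blocks in GENCODE vM21, were listed among the 35869 genes of each library. The cells came from the epididymal white adipose tissue (eWAT) of male wild-type C57BL/6 mice. From 8 weeks of age the mice were fed a normal diet (ND, 10% of calories from fat) or a high-fat diet (HFD, 60% of calories from fat) for 12 weeks. Each diet has 2 samples, and how many mice went into a library is not given in the sources used here, so p-values measure only the spread between these samples. Cells were enriched with CD45 microbeads from the stromal vascular fraction of the tissue. The values are TPM, shares of transcripts that are scaled by gene length and sum to the same total in each library.

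Type 2 lymphocytes of adipose tissue are mainly group 2 innate lymphoid cells (ILC2s) and, among T cells, Th2 cells and regulatory T cells that carry the IL-33 receptor. IL-33, made by stromal cells, binds ST2, the product of Il1rl1, and drives these cells to secrete IL-5 and IL-13. In lean fat IL-5 maintains eosinophils, and IL-4 and IL-13 hold macrophages in an alternatively activated state. GATA3 and RORα are transcription factors needed for ILC2s, and GATA3 also directs Th2 cells. Most of these genes have more than one source, since mast cells also carry ST2 and make type 2 cytokines.

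The libraries held approximately 37500000 and 44400000 counted reads in ND and 46800000 and 41000000 in HFD, an estimate from the smallest steps of TPM at microRNA genes. Ptprc, the gene of CD45, had between 53.7 and 59.4 TPM in the 4 libraries. It is 1 of 6 leukocyte markers, of which 4 were not called by the rule given below. Coro1a was called lower in HFD (log2 fold change -0.71) and Lcp1 higher (0.82). Between the ND libraries 39 genes were at least 2-fold higher in replicate 1 and 37 in replicate 2 (as TPM + 1). The limma fit used below takes a common spread for both diets. HFD replicate 1 stood apart, with 1358 genes at least 2-fold higher there than in the other HFD library (as TPM + 1) and 129 the other way. Its 12 spermatid markers summed to 7900 TPM, against 2080 to 2360 TPM in the other libraries. The 10 fibroblast markers summed to 636 and 682 TPM in ND, then 3157 TPM in HFD replicate 1 but 6324 TPM in the second HFD library.

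In HFD, 6 of the 9 genes were lower by limma, at a p-value of under 0.05 after Benjamini-Hochberg adjustment and with at least a 1.5-fold change, and none was higher. These were Il5, Il13, Gata3, Il1rl1, Areg and Il17rb, with log2 fold changes from -2.17 to -1.29 on the log2(TPM + 1) scale. The same call was met in the lower direction by 10.3% and in the higher direction by 8.08% of the 16849 genes tested. All 9 passed the filter of at least 1 TPM in at least 2 samples, although Gata3 passed it through the ND samples alone, so the count itself is a description. In 8 of the 9 genes both HFD values lay under both ND values, a pattern that 32.8% of all genes tested had. Il33 had both HFD values above both ND values, as 34.1% of genes did. With ND replicate 1 or ND replicate 2 left out, no member passed in limma, nor did any other gene. Of the members, 6 and 5 then had an unadjusted p under 0.05, as did 3862 and 4024 of all genes.

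**Figure D1:**
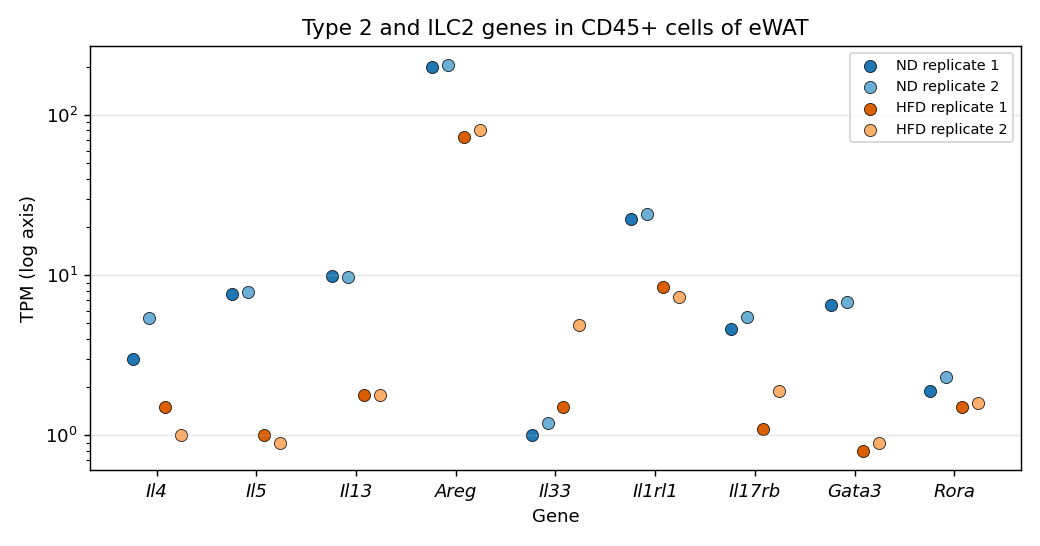
TPM of the 9 genes (log axis) in the 2 ND libraries (blue) and the 2 HFD libraries (orange), 1 point per library. Both HFD points lie under both ND points for every gene but Il33, which reached 4.9 TPM in HFD replicate 2.

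Il5, Il13 and Il4 lie together on chromosome 11 in the type 2 cytokine cluster. In GENCODE vM21 on mm10, Il4 spans 53602982 to 53618669 on the minus strand, Il13 spans 53631324 to 53634702 on the minus strand, and Il5 spans 53720794 to 53725106 on the plus strand. Il5 and Il13 were both called lower, and GATA3 is a known activator of both, whose part in their values was not tested. The 250 bases before the RefSeq starts (GRCm38.p6, the assembly of mm10) of Il5 at chr11:53720544-53720793 and Il13 at chr11:53634703-53634952 are shown. Each is given 5′ to 3′ on the strand of its gene, with matches to a GATA core on either strand in capitals.
Il5: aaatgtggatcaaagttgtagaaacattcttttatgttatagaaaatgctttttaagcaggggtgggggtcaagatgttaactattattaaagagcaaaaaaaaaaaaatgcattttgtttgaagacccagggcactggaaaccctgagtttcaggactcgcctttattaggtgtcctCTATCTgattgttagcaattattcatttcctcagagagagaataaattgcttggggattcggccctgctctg
Il13: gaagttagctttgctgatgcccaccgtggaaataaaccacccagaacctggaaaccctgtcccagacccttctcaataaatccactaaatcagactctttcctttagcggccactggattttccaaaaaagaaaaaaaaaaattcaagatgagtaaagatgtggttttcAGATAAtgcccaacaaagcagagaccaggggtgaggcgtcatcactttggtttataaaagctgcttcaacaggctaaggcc
The core was searched on both strands as AGATAA, as AGATAG, as TGATAA or as TGATAG, from 250 bases before to 50 bases after each start. Il5 has 1 match, on the opposite strand, whose first base lies 72 bases before the start, and Il13 has 1, on its own strand, 81 bases before the start. At least 1 match is held by 29.8% of the 32851 RefSeq windows of this length, and a match is only a description of letters.

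IL-5 supports eosinophils and is the cytokine most typical of ILC2s. Il5 had 7.6 and 7.9 TPM in ND against 1.0 and 0.9 TPM in HFD. The ND values were 8.16 times the HFD values on average, and the groups were far apart compared with the spread within each. In reads, this is approximately 166 and 200 in ND and 24.9 and 19.5 in HFD. The log2 fold change of Il5 was -2.17 (standard error 0.09, adjusted p = 0.00507 in limma), the lowest of the 9 genes, and it ranked 143 among the 1736 genes lower in HFD. Exons of the antisense gene Gm12214, not listed in these tables, overlap those of Il5 over 417 bases, and whether counting used the strand is not stated.

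IL-13 acts on macrophages, epithelium and stroma through the receptor chains IL-4Rα and IL-13Rα1. Il13 had 9.9 and 9.8 TPM in ND, and 1.8 TPM in each HFD sample. Its samples agreed within each diet to the printed decimal or nearly so, with approximately 170 and 195 reads in ND and 35.1 and 30.5 in HFD. Means of 9.85 ± 0.0707 TPM for ND against 1.80 ± 0 TPM for HFD resulted (SD, n = 2 each). For Il13 the log2 fold change was -1.95 (standard error 0.08, adjusted p = 0.005 in limma). The ratio of Il5 to Il13 was 0.768 and 0.806 in ND and 0.556 and 0.5 in HFD, so Il5 made up the smaller part in HFD, a difference not tested.

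IL-4 is the founding cytokine of Th2 cells and is also made by basophils and mast cells. Il4 had 3.0 and 5.4 TPM in ND against 1.5 and 1.0 TPM in HFD. The groups did not overlap, but the ND samples differed from each other by more than the lower of them differed from HFD replicate 1. For Il4 the log2 fold change was -1.18 (95% interval -2.08 to -0.27, adjusted p = 0.072 in limma), which did not pass the threshold. Approximately 52.4 and 109 reads in ND and 29.8 and 17.3 in HFD stand behind these values. Under the alternatives the adjusted p of Il4 ran from 0.0516 to 0.235.

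Il1rl1 encodes ST2, as a membrane receptor and as a soluble decoy form, which values per gene do not separate. It lies on the plus strand of chromosome 1, from 40429570 to 40465415, and RefSeq gives it starts at 40429570 and, about 10 kb downstream, at 40439629. The stretch before the first of these, chr1:40429320-40429569, is shown because it holds more matches to the GATA core than any other member's window.
Il1rl1: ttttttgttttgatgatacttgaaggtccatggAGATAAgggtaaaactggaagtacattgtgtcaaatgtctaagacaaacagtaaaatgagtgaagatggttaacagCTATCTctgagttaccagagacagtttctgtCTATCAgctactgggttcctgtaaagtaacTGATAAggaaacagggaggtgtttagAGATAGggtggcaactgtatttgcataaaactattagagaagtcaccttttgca
Capitals mark 5 matches, whose first bases lie 217, 141, 110, 80 and 54 bases before the start and which do not overlap. At least 5 matches are held by 18 of the 32851 RefSeq windows (0.0548%). The number 5 was set by this window after all windows of the members were searched, so the share is only a description. The window of the second start has 1 match. In all, 8 of the 12 windows of the members hold a match, beside 29.8% of all RefSeq windows. These windows belong to 6 of the 9 genes, while Areg, Il17rb and Il33 have none. Some genes have more than 1 window, and no share by gene was taken over all genes.

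Il1rl1 had 22.5 and 24.1 TPM in ND against 8.5 and 7.3 TPM in HFD. Both HFD samples lay at about the same distance under both ND samples, the ND mean being 2.95 times the HFD mean. With approximately 708 to 2740 reads per library, it was among the better covered members. The log2 fold change of Il1rl1 was -1.45 (standard error 0.10, adjusted p = 0.00851 in limma). With the replicate number as a block, its adjusted p was 0.0527. Per unit of Il1rl1, Il5 was at 0.338 and 0.328 in ND and 0.118 and 0.123 in HFD, and Gata3 at 0.289 and 0.282 in ND and 0.0941 and 0.123 in HFD. Both genes were thus lower in HFD relative to the receptor in each library, a description chosen after the values were seen.

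Il33, the gene of the ST2 ligand, lies on the plus strand of chromosome 19, from 29925114 to 29960718. It had 1.0 and 1.2 TPM in ND, then 1.5 TPM in HFD replicate 1 but 4.9 TPM in the second HFD library. HFD replicate 1 lay close to the ND samples, and HFD replicate 2 alone was well above them. Il33 had a log2 fold change of 0.87 (95% interval -0.59 to 2.33, adjusted p = 0.278 in limma). Without HFD replicate 1 it was 1.49 (adjusted p = 0.0381), and without HFD replicate 2 it was 0.25 (adjusted p = 0.177). Fibroblasts are a known source of Il33, and their markers were also higher in HFD replicate 2, where all 10 exceeded their values in HFD replicate 1. Relative to each fibroblast marker in turn, a description made after the values were seen, Il33 was lower in both HFD libraries for 8 of the 10 markers and overlapped ND for Dcn and Pi16. Per unit of Col1a1 it was at 0.0193 and 0.0243 in ND and 0.00315 and 0.00477 in HFD, and per unit of Pi16 at 0.0526 and 0.0612 in ND and 0.0593 and 0.0907 in HFD. The 10 mesothelial markers summed to 114 and 121 TPM in ND against 71.2 and 110 TPM in HFD, and the 10 endothelial markers to 588 and 590 TPM in ND against 672 and 744 TPM in HFD. The part of these cells in the values of Il33 was not tested.

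Il17rb encodes the chain of the IL-25 receptor that binds IL-25. It lies on the minus strand of chromosome 14, from 29996135 to 30008896, and had 4.6 and 5.5 TPM in ND against 1.1 and 1.9 TPM in HFD. HFD replicate 2 was the higher of the HFD samples but lay well under both ND samples. The log2 fold change of Il17rb was -1.29 (standard error 0.22, adjusted p = 0.0326 in limma). This was the least stable of the 6 calls, with an adjusted p of 0.068 when no filter was used, 0.0505 after quantile normalization, 0.0644 with a replicate block and 0.0644 without HFD replicate 1. Actr8, on the opposite strand, shares 141 exon bases with Il17rb and had 16.6 and 17.8 TPM in ND against 19.6 and 17.2 TPM in HFD. Il25, the gene of its ligand, was listed at 0 in each of the 4 libraries.

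Gata3, on the minus strand of chromosome 2 from 9857078 to 9890034, had 6.5 and 6.8 TPM in ND against 0.8 and 0.9 TPM in HFD. Both HFD samples were far under both ND samples, and the mean in ND was 7.82 times that in HFD. Approximately 368 and 446 reads in ND and 51.5 and 50.4 in HFD lie behind these values. The log2 fold change of Gata3 was -2.05 (standard error 0.10, adjusted p = 0.00537 in limma). Gata3 passed the filter through the ND samples alone and so could only be called lower. Other cells than ILC2s use Gata3, above all T cells, whose 10 markers summed to 214 and 231 TPM in ND against 35.6 and 54.7 TPM in HFD. Relative to each T cell marker in turn, a description made after the values were seen, Gata3 was lower in both HFD libraries for 8 of the 10 markers and overlapped ND for Cd3d and Cd3g. Gata3 relative to Cd3e was not clearly lower in HFD replicate 1, since TPM are printed to 1 decimal. Per unit of Cd3e, a chain of the T cell receptor complex, it was at 0.320 and 0.333 in ND and 0.308 and 0.209 in HFD, and per unit of Lat, an adaptor of that receptor, at 0.346 and 0.380 in ND and 0.148 and 0.167 in HFD. Markers of epididymal epithelium moved the same way, with 10 markers summing to 226 and 242 TPM in ND against 19.4 and 40.0 TPM in HFD. What part T cells or epithelium had in the fall of Gata3 was not tested. Exons of the antisense gene Gm13256, not listed in these data, overlap those of Gata3 over 155 bases. The gene 9230102O04Rik shares 77 exon bases with Gata3 on the same strand and had 1.7 and 2.0 TPM in ND, then 5.5 TPM in HFD replicate 1 but 1.3 TPM in the second HFD library.

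Rora, the gene of RORα, covers 68653786 to 69388246 on the plus strand of chromosome 9. It had 1.9 and 2.3 TPM in ND against 1.5 and 1.6 TPM in HFD. The HFD samples were slightly lower, without overlap, and the ND mean was 1.35 times the HFD mean. Rora had a log2 fold change of -0.28 (95% interval -0.64 to 0.08, adjusted p = 0.185 in limma), short of both thresholds. Since Rora is long, this low TPM still rests on approximately 294 to 496 reads per library. Antisense transcripts of Gm15511 overlap 82 exon bases of Rora and had 7.2 and 9.7 TPM in ND against 4.9 and 5.0 TPM in HFD.

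Areg encodes amphiregulin, a ligand of the EGF receptor that ILC2s, regulatory T cells, mast cells and other cells secrete in tissue repair. It lies on the plus strand of chromosome 5, from 91139599 to 91148432. Areg had 200.4 and 204.4 TPM in ND against 72.9 and 80.7 TPM in HFD. The HFD samples were both less than 0.5 times the ND samples, and the replicates differed little. Its log2 fold change was -1.39 (limma adjusted p = 0.00555, standard error 0.07). Areg held between 76.4% and 80.5% of the summed TPM of the 9 genes in each library. Areg can be induced quickly in isolated cells, and of 14 genes of the response to tissue dissociation 13 were lower in HFD and none higher. They summed to 32450 and 30870 TPM in ND against 17404 and 17042 TPM in HFD, and their part in the values of Areg was not tested.

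**Figure D2:**
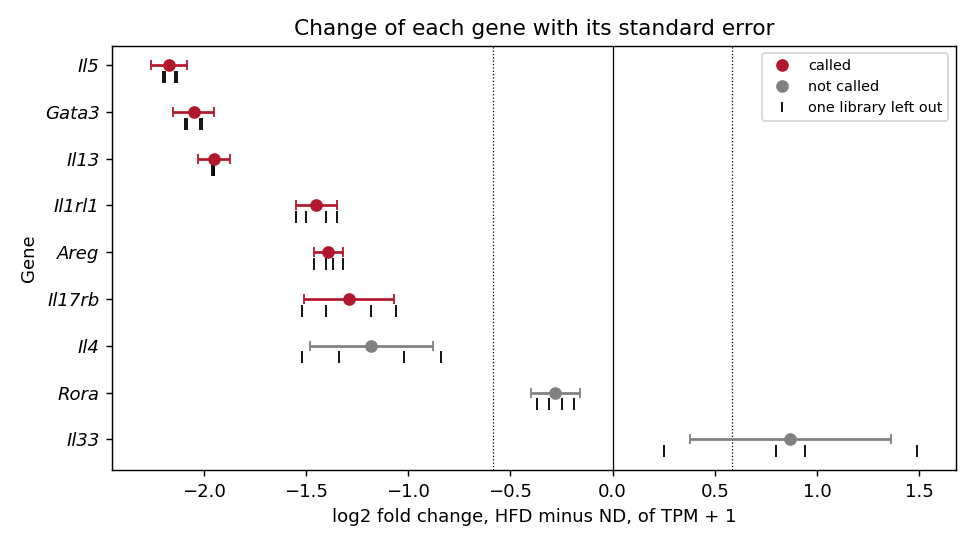
Log2 fold change of each gene between HFD and ND on the TPM + 1 scale, with its standard error from limma (n = 2 each). Red points were called, grey points were not, short ticks show the value with 1 library left out and dotted lines mark 1.5-fold. The 6 called genes lie between -2.17 and -1.29, and the ticks of Il33 are spread from 0.25 to 1.49.

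TPM allows levels to be ordered between genes. In ND the order by mean TPM was Areg (202), Il1rl1 (23.3), Il13 (9.85), Il5 (7.75), Gata3 (6.65), Il17rb (5.05), Il4 (4.2), Rora (2.1) and Il33 (1.1), and the samples of neighbors in this order overlapped for Il17rb and Il4 alone. In HFD Areg (76.8) and Il1rl1 (7.9) kept the first places. Behind them Il33, at 1.5 and 4.9 TPM, overlapped Il13, at 1.8 TPM. Rora, Il17rb, Il4, Il5 and Gata3 followed with means from 1.55 to 0.85 TPM, each overlapping the next in its samples. Gata3 thus went from the middle of the order in ND to the last place in HFD.

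Among the genes that carry the signals of type 2 cytokines, the receptor chains and the kinases and transcription factors behind them were listed apart. Of 6 tested of 8 listed receptor chains, 4 fell and 1 rose (median log2 fold change -0.78, against 0.06 for all genes tested), and without HFD replicate 1 only 2 fell. Of the 51 genes called lower over all pathway lists 10 passed the filter through the ND samples alone, as did 330 of the 1736 among all genes, so such genes could only be called lower. Il5ra, the specific chain of the IL-5 receptor, had 1.5 and 2.0 TPM in ND and 0.2 TPM in each HFD sample (log2 fold change -1.19, limma adjusted p = 0.0181) and is one of these 10. The shared chain Il2rg was at -0.96 and Il4ra, the chain common to IL-4 and IL-13, at -0.81, while Csf2rb2, a beta chain related to that of the IL-5 receptor, rose by 0.93. Of 11 kinase, STAT and SOCS genes, 3 fell and none rose. These were Cish (-1.67) and Socs3 (-0.84), inhibitors that cytokine signals induce, and Jak2 (-0.67). Stat6, the transcription factor of IL-4 and IL-13 signals, had 108.5 and 114.5 TPM in ND against 114.7 and 114.8 TPM in HFD (log2 fold change 0.04, limma adjusted p = 0.572), and is named here after its values were seen.

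The step from ST2 into the cell was followed by a list of its own. Of 10 genes of IL-33 receptor signaling, 1 fell and none rose (median -0.05), beside 10.3% called lower among all genes tested. With a replicate block or a pseudocount of 5 this list had no call. The one was Sigirr, an inhibitory receptor of the IL-1 family, with 4.7 and 5.0 TPM in ND against 1.7 and 1.5 TPM in HFD (log2 fold change -1.17, limma adjusted p = 0.0112). Il1rap, the partner chain of ST2, also named with its values known, had 2.3 and 2.8 TPM in ND against 2.8 and 3.0 TPM in HFD, with a log2 fold change of 0.14 (adjusted p = 0.469). Myd88, the adaptor, was at -0.54 with an adjusted p of 0.0103, under the fold limit.

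Of 20 alarmin and ILC2 activating genes, 14 were tested, of which 9 fell and 2 rose (median -1.04). With a replicate block 5 fell and 1 rose. Tslp, an alarmin that acts beside IL-33 and IL-25, had 29.8 and 26.8 TPM in ND against 5.0 and 4.5 TPM in HFD (log2 fold change -2.35, limma adjusted p = 0.005). Tnfrsf18 (GITR) was at -2.20 and Tnfrsf25 (DR3), the TL1A receptor, at -1.80. Il7r went the other way, with 26.4 and 27.8 TPM in ND against 122.2 and 114.4 TPM in HFD (log2 fold change 2.09, limma adjusted p = 0.00415). IL-7Rα is a marker of ILC2s but also part of the TSLP receptor on myeloid cells. Crlf2, the other chain of that receptor, had 64.0 to 69.2 TPM in the 4 libraries and is named after its values were seen.

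Of 18 further regulators of ILC2s and Th2 cells, 16 were tested, of which 11 fell and 1 rose (median -0.71). Tcf7, the gene of TCF-1, an early factor of ILC and T cell development, had 22.1 and 22.4 TPM in ND against 2.9 and 4.8 TPM in HFD (log2 fold change -2.29, limma adjusted p = 0.0137). Maf was at -1.53 and Batf at -1.40, both also used by other leukocytes. Bhlhe41 rose, from 1.6 and 1.7 TPM in ND to 8.0 TPM in each HFD sample (log2 fold change 1.76, limma adjusted p = 0.00559). Gata2, a relative of Gata3 and a factor of mast cells, had 16.8 and 17.2 TPM in ND against 6.2 and 6.5 TPM in HFD (log2 fold change -1.29, limma adjusted p = 0.00621), a call that was lost with a replicate block.

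Other cytokines of type 2 lymphocytes were split. Of 10 listed, 6 were tested, 3 fell and 1 rose, and without HFD replicate 1 these counts were 1 and 2. Csf2, which encodes GM-CSF, had 16.3 and 20.7 TPM in ND against 4.7 and 5.0 TPM in HFD (log2 fold change -1.73, limma adjusted p = 0.0105). Il2 was at -1.03 and Lif at -0.83, and of these Il2 passed the filter through the ND samples alone. Il10 rose from 428.1 and 445.2 TPM to 778.2 and 882.1 TPM (log2 fold change 0.92, limma adjusted p = 0.0107). Il9 and Il3 did not exceed 0.2 TPM in any library. In the EGF family, 3 of 7 tested genes fell, namely Btc (-0.93), Tgfa (-0.90) and Hbegf (-0.60), all ligands. None of the list was called lower with a replicate block, a pseudocount of 5 or a 2-fold limit, and without HFD replicate 1 the list had 1 call in each direction. Ereg, the gene next to Areg, had 3.7 TPM in each ND sample and 3.2 and 7.0 TPM in HFD.

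Genes that IL-4 and IL-13 raise in macrophages and dendritic cells were also lower, with 9 of 12 falling and none rising (median -1.08). Without HFD replicate 1 the list had 9 lower and 2 higher calls, and without HFD replicate 2 it had 8 and 1. Ccl24, the eotaxin-2 gene, had 288.6 and 295.6 TPM in ND against 26.9 and 14.5 TPM in HFD (log2 fold change -3.82, limma adjusted p = 0.0109). Cd209a was at -2.61, Ccl17 at -2.52 and Retnla, the gene of RELMα, at -2.38. Ccl11, the eotaxin-1 gene, which fibroblasts also make, had 56.6 and 63.5 TPM in ND against 112.3 and 225.8 TPM in HFD (log2 fold change 1.40, adjusted p = 0.0853), and is named after its values were seen.

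**Figure D3:**
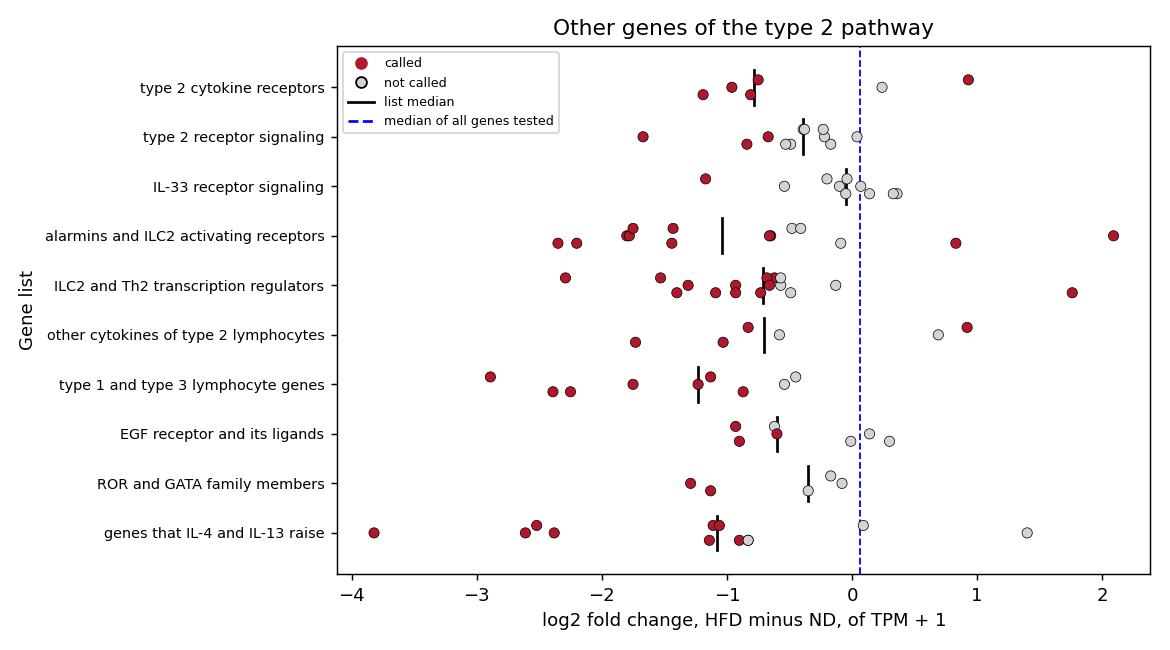
Log2 fold change, HFD minus ND, of the tested genes of 10 lists of the type 2 pathway, 1 point per gene. Red points were called, black bars are list medians and the dashed line is the median of all genes tested (0.06). The median of the IL-33 receptor signaling list (-0.05) lies nearest to that line.

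The cells that could supply the 9 genes were followed by marker lists. In bulk RNA, fewer cells of a type and less RNA per cell cannot be told apart. Of 12 ILC2 markers, which include Gata3 and Il1rl1, 9 were tested, 6 fell and 1 rose. Gata3 and Il1rl1 are among those that fell, and the one that rose was Il7r (log2 fold change 2.09). Klrg1, a receptor of mature ILC2s, NK cells and T cells, had 52.9 and 55.5 TPM in ND against 5.7 and 5.9 TPM in HFD (log2 fold change -3.02, limma adjusted p = 0.00378). Il2ra was at -2.29. All 10 T cell markers in the tables fell, led by Cd3g (-2.63), Cd3d (-2.52) and Cd3e (-2.29). Of 7 markers of regulatory T cells, 6 were tested and 4 fell, while Foxp3 had 7.5 and 7.3 TPM in ND against 5.0 and 5.6 TPM in HFD (log2 fold change -0.42, adjusted p = 0.0567).

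Mast cell markers were abundant and lower in HFD, with 9 of 11 falling and none rising. Of the 9, 1 passed the filter through the ND samples alone and could only be called lower. The 11 markers summed to 1654 and 1671 TPM in ND against 414 and 535 TPM in HFD. Mcpt4, a mast cell chymase, had 670.6 and 669.7 TPM in ND against 159.6 and 196.6 TPM in HFD (log2 fold change -1.91, limma adjusted p = 0.00714). Cma1 was also at -1.91 and Tpsb2, a tryptase, at -1.88. Relative to each of the 10 mast cell markers with at least 1 TPM in every library, Il1rl1 overlapped between the diets for 6, was lower in HFD for 2 (Kit and Slc45a3) and higher for 2 (Cma1 and Mcpt4). Il1rl1 relative to Cma1 was not clearly higher in HFD replicate 2, given TPM printed to 1 decimal. Per unit of Cpa3, the mast cell carboxypeptidase, it was at 0.152 and 0.149 in ND and 0.190 and 0.133 in HFD. For Il1rl1, Areg, Il4 and Il13, which mast cells can express, the part of mast cells was not tested. Of basophil markers, Prss34 fell (-2.24), while Mcpt8 did not exceed 0.3 TPM. Of 8 eosinophil markers 5 were tested, 3 fell and none rose. Alox15, a lipoxygenase gene that macrophages also use, had 10.4 and 11.3 TPM in ND against 1.6 and 1.2 TPM in HFD (log2 fold change -2.31, limma adjusted p = 0.00633). Prg2, the gene of major basic protein, was at -1.43 and Il5ra at -1.19. The granule gene Epx was listed at 0 in all libraries, and Siglecf had 3.2 and 3.6 TPM in ND against 2.1 and 1.5 TPM in HFD, without a call.

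Of 10 macrophage markers, 2 rose and 1 fell, and they summed to 21176 and 20519 TPM in ND against 17505 and 18843 TPM in HFD. With the markers of spermatids, fibroblasts, mesothelial and endothelial cells, adipocytes and epididymal epithelium left out of the total, the same number of members, 6, was called.

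**Figure D4:**
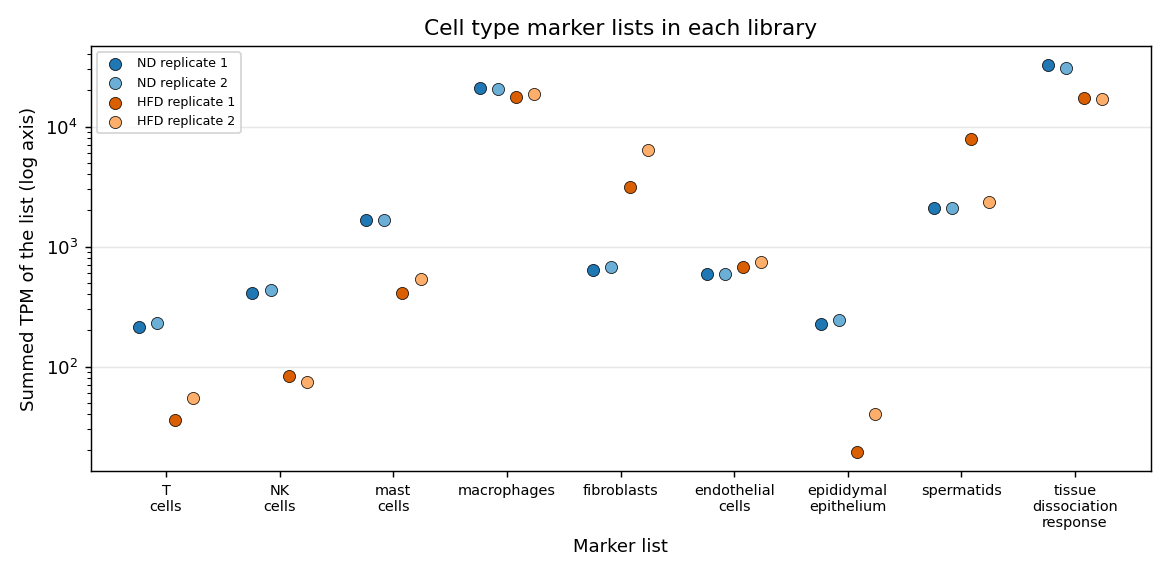
Summed TPM (log axis) of 9 marker lists in each library, 1 point per library. T cell, NK cell, mast cell and epididymal lists lie lower in both HFD libraries, the fibroblast list lies higher and HFD replicate 1 stands out for spermatid genes (7900 TPM).

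The genes around the type 2 cytokine cluster give a local comparison, chosen after the values of the members were seen. Rad50, a DNA repair gene that lies between Il13 and Il5 and holds the locus control region of the cluster, had 21.3 and 23.4 TPM in ND against 23.5 and 23.3 TPM in HFD (log2 fold change 0.06, limma adjusted p = 0.566). Kif3a, a kinesin gene beside Il4, had 3.2 and 3.6 TPM in ND against 4.3 and 3.6 TPM in HFD (adjusted p = 0.403). Irf1, beyond Il5, fell from 157.6 and 159.1 TPM to 108.7 and 93.8 TPM (log2 fold change -0.64, limma adjusted p = 0.0233). Il13 and Il5 were thus called on both sides of a gene that was not, while Il4 was not called either.

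Next to Il1rl1, on its 3′ side, lie Il18r1 and Il18rap, the chains of the IL-18 receptor. Il18r1 had 3.3 TPM in each ND sample and 0.6 TPM in each HFD sample, a log2 fold change of -1.43 (adjusted p = 0.00782 in limma), and passed the filter through the ND samples alone. Il18rap had 6.3 and 7.2 TPM in ND against 1.9 and 1.8 TPM in HFD, a log2 fold change of -1.44 (adjusted p = 0.00909). Lymphocytes use these receptors as well as ST2. Beyond them Slc9a4, a sodium-proton exchanger gene, had 5.9 and 5.8 TPM in ND against 7.7 and 8.5 TPM in HFD (log2 fold change 0.41, limma adjusted p = 0.0537). On the 5′ side the nearest gene, Il1rl2, which encodes the IL-36 receptor, had 3.4 and 4.0 TPM in ND against 2.3 and 3.2 TPM in HFD (log2 fold change -0.33, limma adjusted p = 0.254). Il1r1, the IL-1 receptor gene beyond it, had 0.9 and 1.1 TPM in ND against 1.5 and 3.0 TPM in HFD (log2 fold change 0.66, adjusted p = 0.182), with its highest value in HFD replicate 2, as for Il33.

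**Figure D5:**
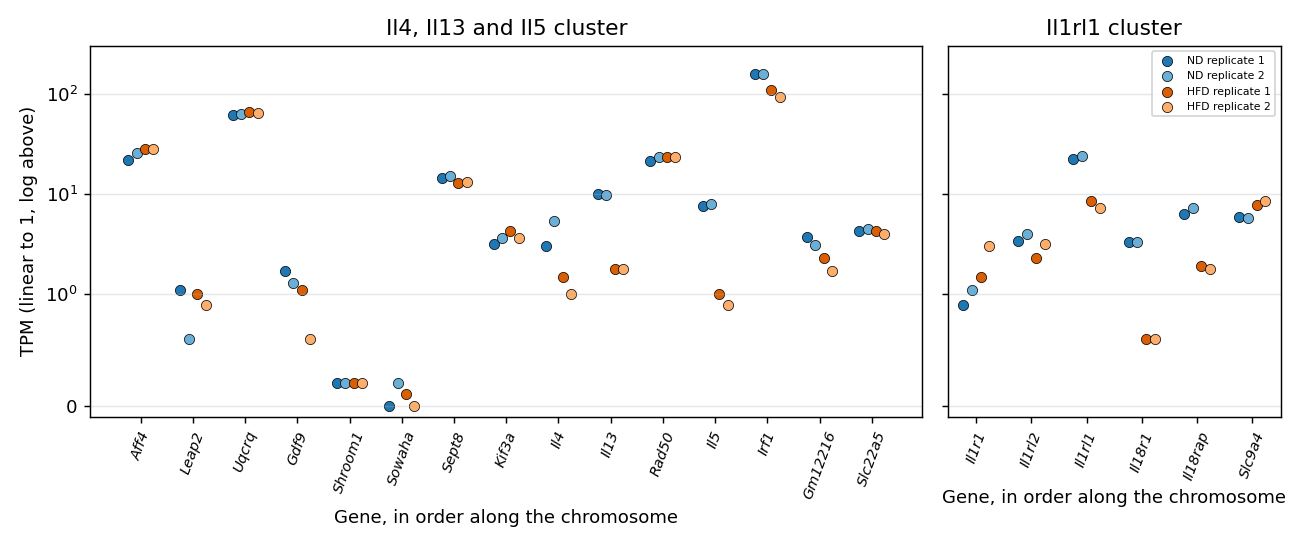
TPM (linear to 1, log above) of protein-coding genes within 200 kb of the Il4, Il13 and Il5 cluster (left) and of Il1rl1 (right), in chromosome order, 1 point per library. Il13 and Il5 lie apart between the diets while the points of Rad50 between them lie together, and Il1rl1, Il18r1 and Il18rap have both HFD points under both ND points.

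The genes most like each member were found by the Euclidean distance of log2(TPM + 1), centred on each gene, over the 4 samples. For Il1rl1 the nearest were Egr3 (distance 0.037) and Il16 (0.040), and for Il17rb Cd8a (0.041), a chain of the CD8 receptor, and Cd244 (0.068). Il5 was nearest to Kmo (0.040) and Pydc3 (0.052), Il13 to Rnase10 (0.044), an epididymal gene, and Gimap1 (0.055), a lymphocyte gene. Gata3 was nearest to Tlr5 (0.058) and Kbtbd11 (0.064), and Areg to Nup210 (0.038) and Rab44 (0.039). Il33 was nearest to Gm2457 (0.099) and C7 (0.1), a complement gene with 44.6 and 51.9 TPM in ND, then 57.5 TPM in HFD replicate 1 but 128.1 TPM in the second HFD library. The nearest to Rora were Traf2 (0.015) and Crebzf (0.016), and those to Il4 were the microRNA genes Mir6989 (0.091) and Mir19b-1 (0.103). With 4 samples many genes share a pattern, so these likenesses are a description.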

How the data were processed

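RNA-seq was carried out on CD45+ cells from eWAT, with 2 ND and 2 HFD libraries, grouped by their titles. Per the labels and the methods of the study, the authors made stranded mRNA libraries, trimmed reads with Trim Galore 0.4.2 and cutadapt 1.9.1, aligned them to mm10 with STAR 2.6.1e, removed duplicates, counted reads with featureCounts 1.6.2 and deposited TPM per gene, printed to 1 decimal. The gene annotation and the strand setting are not given in the sources used here. TPM are shares of a library, so a gene can fall because others rose.

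The members and gene lists were chosen with earlier results of these data known. The TPM of all 35869 genes were joined by symbol, and 16849 genes with at least 1 TPM in at least 2 samples were compared as log2(TPM + 1) with limma 3.58.1 (R 4.3.3) with a trended prior variance and Benjamini-Hochberg adjustment. The pseudocount of 1 understates the changes of low genes. A call needed an adjusted p-value under 0.05 and a 1.5-fold change. An exact two-sided permutation test of 2 samples against 2 cannot give less than p = 0.333, which all 9 members had. Named list genes were up to 4 called genes per list with the largest change, and other list genes were named after their values were seen. A gene of these lists is not reported here. Reads per gene are approximate, from the TPM step of microRNA genes and GENCODE vM21 exon lengths. Promoter sequences come from RefSeq (GRCm38.p6), which held all 9 members. The steps were tested on simulated data. Alternatives were other pseudocounts, filters, scalings, fold limits and priors, a replicate block, and leaving out each library.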

Additional observations from a re-analysis of the deposited data

How the results depend on the processing

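No member changed direction under any of the alternatives run. Il4 and Rora were not called under any, and Il33 was called without HFD replicate 1 alone. Leaving out each library in turn gave log2 fold changes from -2.20 to -2.13 for Il5, -1.96 to -1.95 for Il13, -2.09 to -2.01 for Gata3, -1.55 to -1.35 for Il1rl1, -1.46 to -1.32 for Areg, -1.52 to -1.06 for Il17rb and 0.25 to 1.49 for Il33. In these fits the lone sample of a diet is assumed to vary like the other diet. The number of members called then ran from 0 to 6, that of all genes from 0 to 4232 and that of other pathway genes from 0 to 57, with 0 in limma without either ND replicate. The cause was not tested. Il17rb lost its call without a filter (-1.29), after quantile normalization (-1.25) and with a replicate block (-1.29). The replicate block also ended the call of Il1rl1 (-1.45), leaving 4 members, 812 genes and 23 of 56 other pathway genes called. Same-numbered samples did not deviate together (correlation -0.015 over genes), and the numbers were therefore treated as names only, not as a pairing. A mean of at least 5 TPM left 3 members called and 36 pathway genes, since fewer genes were tested. Of all genes 3097 were called, against 2015 at a pseudocount of 5 and 1602 with a 2-fold limit, with 36 and 33 pathway genes. With the replicate block, the genes called lower went from 10 to 4 in the T cell list, 9 to 4 in the mast cell list, 11 to 3 among the regulators, 9 to 5 among the activating genes, 9 to 5 among the genes that IL-4 and IL-13 raise, 4 to 1 among the receptor chains, 3 to 0 in the EGF family, 2 to 0 among the ROR and GATA genes and 1 to 0 in IL-33 receptor signaling. In the eosinophil list and among the other cytokines of type 2 lymphocytes the genes called lower went from 3 to 1 each. The fibroblast genes called higher went from 7 to 2. Fewer than 100 reads per HFD library lay behind Il4, Il5, Il13, Gata3 and Il17rb, and whether depth limits these values was not tested.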

Other observations

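Lymphocyte genes of type 1 and type 3 immunity were lower in HFD as well. Of 11 listed, 9 were tested, 7 fell and none rose (median log2 fold change -1.23). Of the 7, 4 passed the filter through the ND samples alone, Il17a and Il23r among them, and could only be called lower. Ifng, the gene of the type 1 cytokine interferon-γ, had 16.9 and 17.9 TPM in ND against 1.2 and 1.8 TPM in HFD, a log2 fold change of -2.89 (adjusted p = 0.00613 in limma). Tbx21, the type 1 counterpart of Gata3, was at -2.39, Il17a, a type 3 cytokine gene, at -2.25 and Il23r at -1.75. With a replicate block, 2 were called lower. The log2 fold changes of Il5 (-2.17), Il13 (-1.95) and Gata3 (-2.05) lie within the range of these genes, and a difference between the types of immunity was not tested. The NK cell markers all fell, 8 of 8, led by Nkg7 (-2.51), and 6 of 7 B cell markers fell, led by Blk (-2.66). In each of these 2 lists 1 of the genes called lower passed the filter through the ND samples alone and could only be called lower.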
